A study of Mus musculus with 8 samples.

Results

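The BCL2 family sets the threshold for mitochondrial apoptosis, and 10 of its genes were followed here across 4 groups of mouse CD4+ T cells. The members were Bbc3, Pmaip1, Bmf, Bcl2l11 and Bid (BH3-only, pro-apoptotic), Bax and Bak1 (effectors, pro-apoptotic), and Bcl2, Bcl2l1 and Mcl1 (pro-survival). They were found by the gene name given for each non-control probe of the arrays, which yielded 23 of the 56587 usable probes. The test needed 2 arrays of 1 group well above background, which 21 of these probes and 32039 probes in all met. The other 2, 1 for Bid and 1 for Bcl2l1, were not well above background on any array.

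In this family the BH3-only proteins act as sensors. They are induced or released by stress or by loss of growth signals, bind the pro-survival proteins through their BH3 domain, and so free or activate BAX and BAK, which open the outer mitochondrial membrane. In T cells the balance is set largely by antigen receptor and cytokine signals: BCL2 is sustained by interleukin-7, BCL-XL (encoded by Bcl2l1) is induced by costimulation, and MCL1 is needed at every stage, while BIM (Bcl2l11) and PUMA (Bbc3) are the sensors best known for removing activated T cells when a response ends.

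The hosts were C57BL/6 mice, either tumor-free or bearing MCA205-OVA, a fibrosarcoma line that makes ovalbumin. Every group was given ovalbumin-specific TCR transgenic CD4+ T cells and dendritic cells pulsed with ovalbumin peptide, and received either a control Ab or an antibody against the interleukin-6 receptor (anti-IL-6R Ab) at the same time. CD4+ T cells were isolated 4 days after immunization, so transferred and host CD4+ T cells were profiled together. There were 2 arrays per group: 1 and 2 (tumor-free, control Ab), 3 and 4 (MCA-OVA-bearing, control Ab), 5 and 6 (tumor-free, anti-IL-6R Ab), and 7 and 8 (MCA-OVA-bearing, anti-IL-6R Ab). Not given in the sources used here are the age and number of mice behind each sample, pooling, antibody doses and the purity of the isolates. Each condition was run as 2 independent experiments according to the series text, but which arrays belong to the same experiment is not stated, and the p-values reflect only how far these samples vary, which may be technical.

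All 8 arrays lay on 1 slide, with the control Ab arrays in its first column and the anti-IL-6R Ab arrays in its second, and the tumor-free and MCA-OVA-bearing arrays in different rows, so slide position and group cannot be told apart. On each array 53.1% to 59.8% of probes were well above background and no probe was saturated. The defining CD4+ T cell genes Cd4, Zbtb7b and Cd40lg were above background in every group, and none of the 3 passed the test in any comparison described here. Of 14 pan T cell markers, 11 were above 0 between hosts under control Ab (median 0.15, 1 passing higher). For the antibody in MCA-OVA-bearing mice only 1 of the 14 was above 0 (median -0.24, 1 passing lower). Their summed level was 1132 to 1265 in tumor-free and 1337 to 1360 in MCA-OVA-bearing mice with control Ab. With anti-IL-6R Ab it was 1221 to 1279 and 1070 to 1191. The part of T cell content in the member results was not tested. Marker genes of other cells differed between the groups. In the control Ab comparison of hosts, 3.36% of all probes passed higher and 1.89% lower. There 11 of 17 erythroid, 6 of 14 neutrophil and 5 of 7 plasma cell markers were higher in MCA-OVA-bearing mice, and 5 of 12 B cell markers were lower. Of 9 NK cell markers 1 was higher and 3 were lower. With anti-IL-6R Ab in MCA-OVA-bearing mice, 8 erythroid and 6 neutrophil markers were lower and 4 of 9 NK cell markers were higher. Over all probes 4.27% passed there, 1.51% higher. In bulk RNA of this kind, fewer cells of a type and less RNA per cell cannot be told apart.

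Apart from the summed levels, values are log2 signals relative to the 75th percentile of the same array. They compare one probe between arrays, and do not compare one gene with another. Differences were tested with limma, fitted over all tested probes, with Benjamini-Hochberg adjustment and a threshold of 0.05. "Rose" and "fell" are used for what passed it. Intervals are 95% intervals of a single difference and are not adjusted for the number of probes.

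3 probes carried most of what follows, and their first 30 bases are shown because 2 of them lie in the same gene and gave different results. The Bbc3 probe lay on chromosome 7 at chr7:16903403-16903462 on the forward strand. The 2 Bmf probes lay on the reverse strand of chromosome 2, at chr2:118354496-118354555 (position 4570 of the transcript named for it) and at chr2:118358312-118358371 (position 754 of the same transcript). Positions are on the mouse build mm9, which the array files name.
Bbc3 A_51_P248122: tgggagcggggagggacggcccagcctgta
Bmf A_55_P2029106: catgtgtaaatatcctctcatccatcaagt
Bmf A_51_P482239: tggtggcaggtcttcctcttccttcaaaac

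The probe of Bbc3 tracked the antibody, in both hosts. Bbc3 encodes PUMA, a BH3-only protein that binds all pro-survival members. Its log2 signal was 1.81 and 1.67 in tumor-free mice with control Ab, and 1.55 and 1.88 in MCA-OVA-bearing mice with control Ab. With anti-IL-6R Ab it was 2.97 and 2.81 in tumor-free mice and 3.04 and 2.87 in MCA-OVA-bearing mice. All 4 arrays of anti-IL-6R Ab were thus above all 4 of control Ab, while the hosts overlapped under either antibody. The share of all probes that part in this way was not counted.

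With anti-IL-6R Ab, Bbc3 rose by 1.24 ± 0.12 (SE) on the log2 scale in MCA-OVA-bearing mice, a 2.36-fold change (limma adjusted p = 0.018). In tumor-free mice it rose by 1.15 ± 0.12, or 2.23-fold (limma adjusted p = 0.046). The difference between these effects, tested as an interaction, was 0.09 with an interval of -0.32 to 0.49 (limma adjusted p = 0.798). Averaged over both hosts the antibody effect was 1.20 ± 0.09, a 2.29-fold rise (limma adjusted p = 0.0060). The hosts differed by -0.02 under control Ab and by 0.06 under anti-IL-6R Ab, with intervals of -0.31 to 0.26 and -0.22 to 0.35.

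The strength of these calls differed. In MCA-OVA-bearing mice the call was lost without array 8 (adjusted p = 0.055) and with no variance trend (0.053), and averaged over hosts it was lost without array 2 (adjusted p = 0.055). In tumor-free mice it was lost without any 1 of arrays 1, 2, 5, 7 and 8 (adjusted p 0.078 to 0.108) and under 4 other settings (0.0501 to 0.128: no filter on dim probes, 1 probe per gene, no variance trend, array weights), while the change stayed between 1.07 and 1.23. Endothelial markers were also higher on the anti-IL-6R Ab arrays. In MCA-OVA-bearing mice 2 of 6 tested, Egfl7 and Plvap, rose, against 1.51% of all probes. None passed in tumor-free mice, where 4 of the 6 had an unadjusted p under the threshold, against 8.00% of all probes. The summed level of that list was 4.98 to 6.20 in tumor-free and 4.69 to 4.92 in MCA-OVA-bearing mice with control Ab, against 7.14 to 10.7 and 8.55 to 9.36 with anti-IL-6R Ab. Of 11 tested macrophage and monocyte markers, 10 lay above 0 for the antibody in each host (medians 0.55 in MCA-OVA-bearing and 0.21 in tumor-free mice). In MCA-OVA-bearing mice 1 passed (9.09%, against 1.51% of all probes). In tumor-free mice none passed by limma, with 2 (18.2%) unadjusted. Of 8 dendritic cell markers, 8 and 7 lay above 0 in the same order. None passed by limma, with 4 and 1 unadjusted. The part of any of these cells in the Bbc3 result was not tested.

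**Figure D1:**
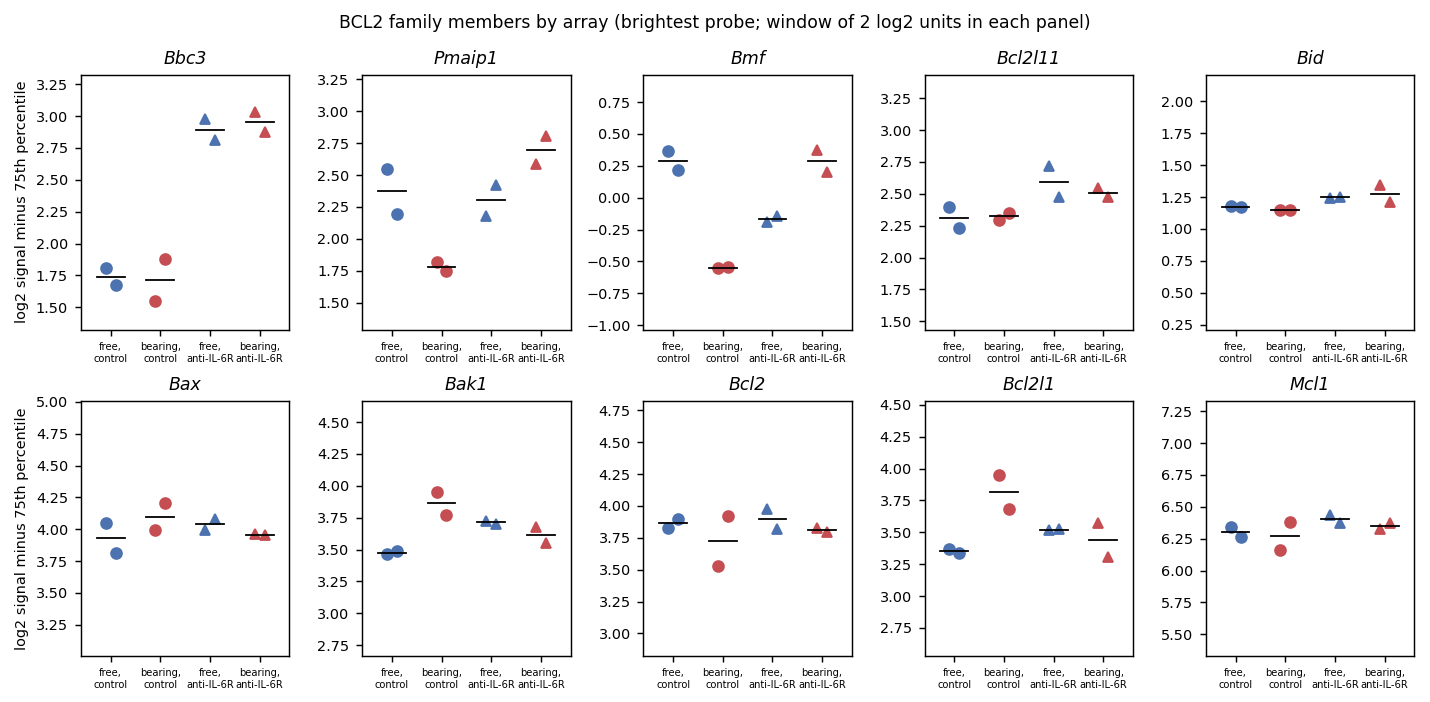
Log2 signal relative to the 75th percentile of the array (vertical axis) for the brightest probe of each of the 10 members, by group; circles are control Ab, triangles anti-IL-6R Ab, blue tumor-free, red MCA-OVA-bearing, and bars are means of 2 arrays. Bbc3 lies at 2.81 or above on the 4 anti-IL-6R Ab arrays and at 1.88 or below on the others, Bmf and Pmaip1 are lowest on the 2 control Ab arrays of MCA-OVA-bearing mice, and Mcl1 stays between 6.16 and 6.44.

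Pmaip1 and Bmf, in contrast, were lowest in MCA-OVA-bearing mice given control Ab. Pmaip1 encodes NOXA, a BH3-only protein that mainly antagonizes MCL1. Its log2 signal was 2.55 and 2.20 in tumor-free mice with control Ab and 1.82 and 1.74 in MCA-OVA-bearing mice with control Ab. With anti-IL-6R Ab it was 2.18 and 2.42 in tumor-free and 2.59 and 2.81 in MCA-OVA-bearing mice. The 2 control Ab arrays of MCA-OVA-bearing mice were below the other 6, and the 2 anti-IL-6R Ab arrays of MCA-OVA-bearing mice were the highest.

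Under control Ab, Pmaip1 fell by 0.59 ± 0.14 (SE) in MCA-OVA-bearing relative to tumor-free mice, a 1.51-fold difference (limma adjusted p = 0.047). With anti-IL-6R Ab in MCA-OVA-bearing mice it rose by 0.92 ± 0.14, or 1.89-fold (limma adjusted p = 0.027). In tumor-free mice the antibody difference was -0.07, with an interval of -0.39 to 0.24 (limma adjusted p = 0.891). The interaction was 0.99 ± 0.19 and did not pass (limma adjusted p = 0.083), so the antibody effect is not shown to differ between the hosts. The host comparison lost its call without any 1 of arrays 1, 2, 3, 4, 7 and 8 (adjusted p 0.055 to 0.148) and with normexp, no filter, no variance trend or array weights (0.054 to 0.114). The antibody comparison lost it without array 3, 4 or 8 (0.066 to 0.158) and with no filter or no variance trend (0.056 and 0.078).

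Bmf encodes a BH3-only protein that is held on the cytoskeleton by dynein light chain until released. Its brighter probe, A_55_P2029106, read 0.37 and 0.21 in tumor-free mice with control Ab and -0.56 and -0.54 in MCA-OVA-bearing mice with control Ab. With anti-IL-6R Ab it read -0.19 and -0.14 in tumor-free and 0.37 and 0.20 in MCA-OVA-bearing mice. The tumor-free control Ab arrays and the anti-IL-6R Ab arrays of MCA-OVA-bearing mice covered nearly the same range, the tumor-free anti-IL-6R Ab arrays lay between, and the control Ab arrays of MCA-OVA-bearing mice lay lowest.

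By this probe Bmf fell by 0.84 ± 0.10 (SE) in MCA-OVA-bearing mice under control Ab, a 1.79-fold difference (limma adjusted p = 0.0054). This was the member call that held under all 15 alternative settings tried, with adjusted p between 0.0054 and 0.0288. With anti-IL-6R Ab in MCA-OVA-bearing mice it rose by 0.84 ± 0.10 (limma adjusted p = 0.026), a call lost without array 8 (adjusted p = 0.076) and with no filter or no variance trend (0.053 and 0.055). In tumor-free mice the antibody difference had the opposite sign, -0.46, but it did not pass (limma adjusted p = 0.370). The arrays did not overlap there, as for 39.9% of all probes. The interaction of 1.29 ± 0.14 fell just short (limma adjusted p = 0.054) and passed without array 1, 6 or 7 (0.038 to 0.047), with normexp (0.045) and with 1 probe per gene (0.048).

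The second Bmf probe, A_51_P482239, did not follow. It read between -2.31 and -2.07 on all 8 arrays, each time well above background. Its host difference under control Ab was 0.02 and its antibody difference in MCA-OVA-bearing mice was 0.08. The Bmf result is therefore a result of 1 probe, at position 4570 of the transcript, and not of the probe at position 754.

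Summed markers of some other cells were also lowest on the control Ab arrays of MCA-OVA-bearing mice, as Pmaip1 and the brighter Bmf probe were. Of 12 B cell markers, all 12 lay below 0 between hosts under control Ab (median -0.87, 5 passing, against 1.89% of all probes lower). All 12 lay above 0 for the antibody in MCA-OVA-bearing mice (median 0.71, 1 passing, against 1.51% of all probes higher). Their summed level was 51.0 to 66.2 in tumor-free and 29.7 to 43.1 in MCA-OVA-bearing mice with control Ab, then 55.7 to 55.9 and 53.7 to 57.0 with anti-IL-6R Ab. The sum of 9 NK cell markers was 20.5 to 20.7, 14.6 to 15.4, 23.2 to 23.4 and 19.9 to 21.8 in the same order. That of 5 tested platelet markers was 2.07 to 2.26, 1.35 to 1.71, 2.17 to 2.32 and 2.39 to 2.94, and that of 8 tested dendritic cell markers was 399 to 406, 295 to 363, 389 to 416 and 416 to 424. In all 4 lists the sum was lower on the control Ab arrays of MCA-OVA-bearing mice than on the other 6. Single genes did not all follow. Between hosts under control Ab, 3 of 9 NK cell, 2 of 8 dendritic cell and 0 of 5 platelet markers lay above 0. No dendritic cell marker passed by limma there, with 1 (12.5%) unadjusted against 23.8% of all probes. None passed for the antibody in MCA-OVA-bearing mice either, with 4 (50%) unadjusted against 27.0%. The part of these cells in the Pmaip1 and Bmf results was not tested.

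**Figure D2:**
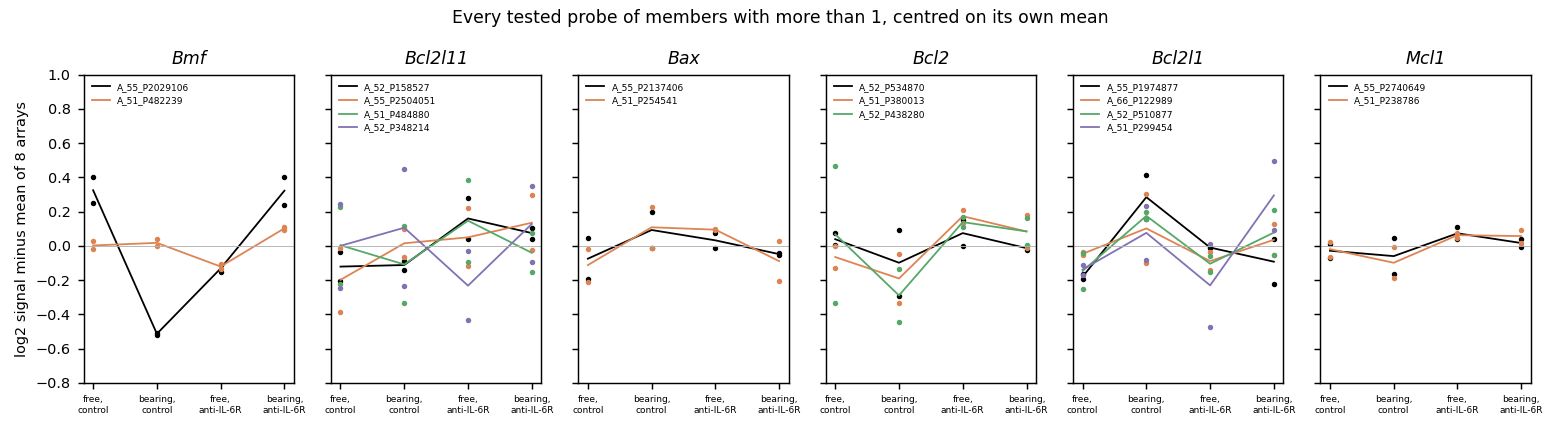
Log2 signal minus the mean of the same probe over 8 arrays (vertical axis) for each tested probe of the 6 members with more than 1; points are arrays, and lines join the 4 group means. The 2 Bmf probes part in MCA-OVA-bearing mice with control Ab, where the brighter one is lowest, whereas the 2 probes each of Bax and Mcl1 run close together.

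The remaining sensors showed small differences. Bcl2l11, which encodes BIM, had 4 tested probes. The brightest, A_52_P158527, read 2.40 and 2.23 in tumor-free and 2.30 and 2.35 in MCA-OVA-bearing mice with control Ab, then 2.72 and 2.47 in tumor-free and 2.54 and 2.48 in MCA-OVA-bearing mice with anti-IL-6R Ab. The 4 anti-IL-6R Ab arrays were all above the 4 control Ab arrays, a separation whose share over all probes was not counted. The differences of 0.28 in tumor-free and 0.19 in MCA-OVA-bearing mice did not pass (limma adjusted p = 0.596 and 0.272). The other 3 probes differed by -0.23 to 0.25 between the antibodies in either host. Of these, A_52_P348214 was well above background on only 4 of 8 arrays, and on neither tumor-free array with anti-IL-6R Ab.

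Bid encodes a sensor that caspase-8 cleaves, linking death receptors to mitochondria. Its tested probe stayed between 1.15 and 1.34 on all 8 arrays. The antibody difference was 0.13 in MCA-OVA-bearing mice, with an interval of -0.06 to 0.31, and 0.07 in tumor-free mice, with an interval of -0.11 to 0.26. The host difference under control Ab was -0.03.

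Of the effectors, Bak1 was higher in MCA-OVA-bearing mice under control Ab and Bax did not pass. BAK1 sits in the mitochondrial membrane and is held in check mainly by MCL1 and BCL-XL. Bak1 read 3.46 and 3.49 in tumor-free and 3.95 and 3.77 in MCA-OVA-bearing mice with control Ab, and 3.73, 3.70, 3.68 and 3.55 on arrays 5 to 8 with anti-IL-6R Ab. The tumor-free control Ab arrays were the lowest and the control Ab arrays of MCA-OVA-bearing mice the highest of the 8.

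The Bak1 rise was 0.39 ± 0.08 (SE), or 1.31-fold (limma adjusted p = 0.039), and it was lost without any 1 of arrays 1, 2, 3, 5 and 6 (adjusted p 0.059 to 0.174) and with quantile normalization, no filter, no variance trend or array weights (0.060 to 0.106). With anti-IL-6R Ab, Bak1 differed by -0.24 in MCA-OVA-bearing and by 0.24 in tumor-free mice (limma adjusted p = 0.107 and 0.582). Bax, whose product moves from the cytosol to mitochondria on activation, ranged from 3.81 to 4.20 on its brighter probe, with a host difference of 0.17 under control Ab and antibody differences of -0.14 and 0.11 in MCA-OVA-bearing and tumor-free mice. Its second probe gave 0.22, -0.20 and 0.21 for the same 3 comparisons.

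No pro-survival probe passed the limma test in any comparison (0 of 9 each time). With 5.25% of all probes passing between hosts under control Ab and 4.27% for the antibody in MCA-OVA-bearing mice, fewer than 1 of 9 would pass at those shares, so the count is near the background. At an unadjusted p under the threshold 1 of 9 (11.1%, against 23.8% of all probes) and 2 of 9 (22.2%, against 27.0%) stood in the same order. The nearest was Bcl2l1, the gene of BCL-XL. Its brightest probe read 3.37 and 3.34 in tumor-free and 3.95 and 3.69 in MCA-OVA-bearing mice with control Ab, and 3.52, 3.52, 3.57 and 3.31 on arrays 5 to 8 with anti-IL-6R Ab. The 2 control Ab arrays of MCA-OVA-bearing mice were the highest.

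The host difference of Bcl2l1 under control Ab was 0.46 ± 0.11 (SE), with an interval of 0.21 to 0.72 (limma adjusted p = 0.052), and it passed without array 4, 7 or 8 (0.045 to 0.046) and with 1 probe per gene (0.049). With anti-IL-6R Ab in MCA-OVA-bearing mice it was -0.38 (limma adjusted p = 0.080). Bcl2l1 is also active in maturing red cells, and the summed level of the erythroid markers was 389 to 756 on the tumor-free and 978 to 1479 on the MCA-OVA-bearing arrays with control Ab. With anti-IL-6R Ab that sum was 1034 to 1233 in tumor-free and 988 to 1206 in MCA-OVA-bearing mice. Of the erythroid markers, Rhd rose by 4.66 and Slc4a1 by 3.99 between the hosts under control Ab, and the part of erythroid RNA in the Bcl2l1 and Bak1 values was not tested. The 3 dimmer tested probes of Bcl2l1 differed by 0.15 to 0.32 between the hosts, and 1 of them, A_51_P299454, was not well above background on either tumor-free control Ab array.

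Bcl2, the survival factor of resting T cells, ranged from 3.53 to 3.98 on its brightest probe. Array 3 was the lowest and the other control Ab array of MCA-OVA-bearing mice, at 3.92, was among the highest, so this group spanned nearly the whole range. The antibody difference was 0.09 in MCA-OVA-bearing and 0.04 in tumor-free mice, with intervals of -0.19 to 0.36 and -0.24 to 0.31. The host difference under control Ab was -0.14 by this probe, -0.13 by A_51_P380013 and -0.36 by A_52_P438280, and none of these passed. On the last probe the 2 tumor-free control Ab arrays read -0.23 and 0.57, on either side of the MCA-OVA-bearing control Ab arrays at -0.34 and -0.03. Without array 1 its difference was -0.76 and passed (limma adjusted p = 0.043), and without array 2 it changed sign to 0.04 (limma adjusted p = 0.935).

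Mcl1 encodes a short-lived protein controlled largely by its turnover. Its brighter probe ranged from 6.16 to 6.44. The antibody difference was 0.08 in MCA-OVA-bearing mice, with an interval of -0.12 to 0.27, and 0.10 in tumor-free mice, with an interval of -0.09 to 0.30. The host difference under control Ab was -0.03, with an interval of -0.23 to 0.16. Its second probe gave 0.16, 0.08 and -0.08 for the same comparisons.

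**Figure D3:**
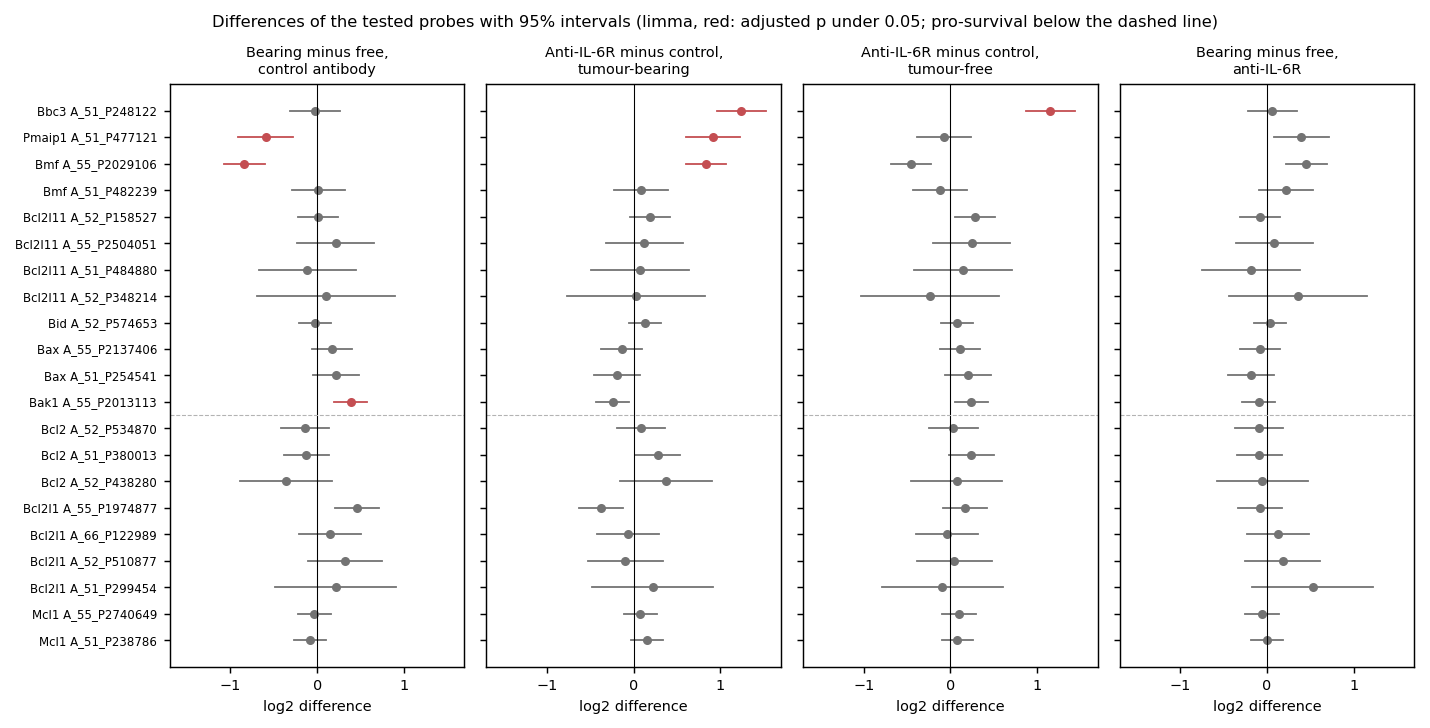
Log2 differences (horizontal axis) of the 21 tested probes in 4 comparisons, with 95% intervals not adjusted for multiple tests; red marks a limma adjusted p under 0.05 and the dashed line parts pro-apoptotic (above) from pro-survival probes. Bbc3, Pmaip1 and Bmf are red for the antibody in MCA-OVA-bearing mice (1.24, 0.92 and 0.84), Bbc3 alone in tumor-free mice (1.15), and no pro-survival probe is red.

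Counted over probes, 3 of 21 member probes passed between the hosts under control Ab, Pmaip1 and Bmf lower and Bak1 higher. Over all probes tested, 5.25% passed in that comparison, 3.36% higher and 1.89% lower. That split moved with single arrays: 64% of the calls were higher with all 8 arrays, but 41.6% without array 1, and 57.3% to 78.8% without 1 of the others. Also 3 of 21 passed for the antibody in MCA-OVA-bearing mice, all BH3-only and higher, where 4.27% of all probes passed, 1.51% higher. Of these calls 35.4% were higher, but 71.6% without array 3, 75% without array 8, 51.5% without array 7, and 21.5% to 44.1% without 1 of the others. In tumor-free mice 1 of 21 passed, Bbc3, where 0.0312% of all probes (10 of them) did, 0.025% higher. Between the hosts under anti-IL-6R Ab 0 of 21 passed by limma, with 2 (9.52%) at an unadjusted p under the threshold, where 0.209% of all probes passed and 7.43% had such a p. For the interaction it was 0 of 21, with 5 (23.8%) at an unadjusted p under the threshold, against 0.025% and 23.6% of all probes. For the average host effect it was 0 of 21, with 3 (14.3%) unadjusted, against 1.64% and 11.3%. For the average antibody effect 1 of 21 passed, Bbc3, against 0.0905%, of which 0.0718% higher. The members were chosen with earlier results of these data known, so a share above that of all probes is no independent support.

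Lack of overlap between 2 and 2 arrays was common. Over all probes the arrays did not overlap for 52.5% between hosts under control Ab, 59.8% for the antibody in MCA-OVA-bearing mice, 39.9% for the antibody in tumor-free mice and 47.8% between hosts under anti-IL-6R Ab. The host and antibody comparisons that involve MCA-OVA-bearing mice share the same 2 control Ab arrays, numbers 3 and 4. The fall and the rise of Pmaip1 and Bmf are thus both measured from these arrays.

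Set by class, the BH3-only sensors spread most. The brightest probes of the 5 BH3-only genes ran from 0.13 to 1.24 for the antibody in MCA-OVA-bearing mice and from -0.84 to 0.01 between hosts under control Ab. Those of the pro-survival genes ran from -0.38 to 0.09 and from -0.14 to 0.46, and those of the effectors from -0.24 to -0.14 and from 0.17 to 0.39. For the antibody in MCA-OVA-bearing mice the median difference of the brightest probes was 0.84 over the 5 BH3-only genes, all 5 above 0, against -0.19 over the 2 effectors, 0.08 over the 3 pro-survival genes and -0.04 over all probes tested. Between hosts under control Ab the medians were -0.03, 0.28 and -0.03 in the same order, and 0.01 over all probes. For the antibody in tumor-free mice they were 0.07, 0.17 and 0.10, and 0.02 over all probes. The class medians depended on the choice of the brightest probe. Over every tested probe, for the antibody in MCA-OVA-bearing mice, they were 0.13 (9 BH3-only), -0.20 (3 effector) and 0.09 (9 pro-survival). By that count the BH3-only and pro-survival medians were close. The 0.84 is the value of the brighter Bmf probe, which the second Bmf probe did not follow.

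With each brightest probe centred on its mean over 8 arrays, the mean of the 7 pro-apoptotic genes minus that of the 3 pro-survival genes was 0.04 and -0.10 in tumor-free mice with control Ab. It was -0.23 and -0.29 in MCA-OVA-bearing mice with control Ab, 0.03 and 0.09 in tumor-free mice with anti-IL-6R Ab, and 0.22 and 0.24 in MCA-OVA-bearing mice with anti-IL-6R Ab. The class difference was lowest on the 2 control Ab arrays of MCA-OVA-bearing mice and highest on their 2 anti-IL-6R Ab arrays. The effectors alone ran the other way, at 0.14 and 0.15 on the first pair and -0.01 and -0.08 on the second. The BH3-only mean includes Bbc3, Pmaip1 and Bmf, so this restates their values and carries no test.

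**Figure D4:**
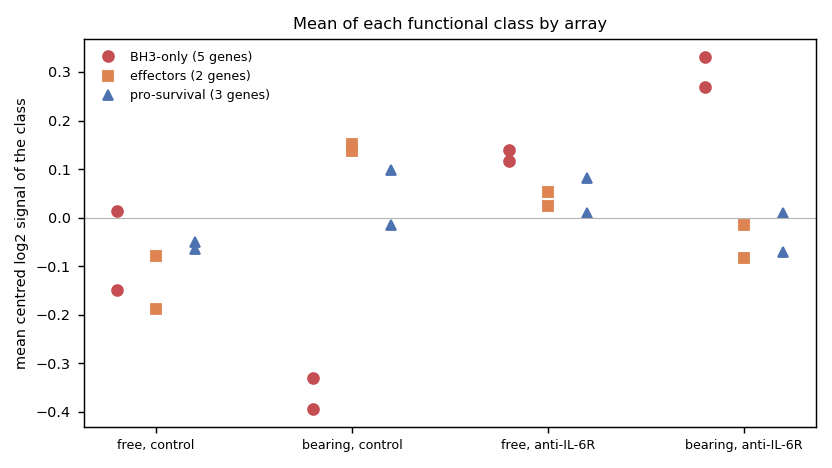
Mean centred log2 signal (vertical axis) of the brightest probes of the 5 BH3-only, 2 effector and 3 pro-survival genes on each array, by group. The BH3-only mean runs from -0.39 and -0.33 in MCA-OVA-bearing mice with control Ab to 0.33 and 0.27 with anti-IL-6R Ab, while the pro-survival mean stays between -0.07 and 0.10 on all 8 arrays.

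The promoters of Bbc3 and Bmf are shown because both genes rose with the antibody in MCA-OVA-bearing mice. Each is 250 bases before to 50 after a RefSeq start site on GRCm38.p6, one of 3 listed for each gene, with letter matches in capitals. In Bbc3, chr7:16310011-16310310 on the forward strand, the capitals are the FOXO letters TGTTTAC, at -167 from the start, and 4 GC boxes (GGGCGG). In Bmf, chr2:118544538-118544837 on the reverse strand, they are a p53 decamer, at -213 from the start. Of the 3 windows of its gene, each one printed is the only one with the FOXO letters (Bbc3) or the p53 decamer (Bmf). The other Bbc3 windows held GC boxes only, and of the other Bmf windows 1 held a GC box.
Bbc3 promoter: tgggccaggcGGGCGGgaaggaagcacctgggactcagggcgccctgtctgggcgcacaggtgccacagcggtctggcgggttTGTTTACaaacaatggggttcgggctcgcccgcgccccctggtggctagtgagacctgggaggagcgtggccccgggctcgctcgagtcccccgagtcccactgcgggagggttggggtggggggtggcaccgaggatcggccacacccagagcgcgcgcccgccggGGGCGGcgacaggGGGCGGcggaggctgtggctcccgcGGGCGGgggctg
Bmf promoter: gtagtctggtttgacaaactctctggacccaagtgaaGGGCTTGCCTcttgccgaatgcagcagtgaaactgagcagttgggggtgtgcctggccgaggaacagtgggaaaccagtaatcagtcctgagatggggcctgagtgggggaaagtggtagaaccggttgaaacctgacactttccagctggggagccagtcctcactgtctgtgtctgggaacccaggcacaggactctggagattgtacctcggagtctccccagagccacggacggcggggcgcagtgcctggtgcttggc

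Both strands of 16 RefSeq promoters of 9 members were searched for these letters, for TTCNNNGAA of the STAT factors, for AGATAA of the GATA factors, for AGAACA of the glucocorticoid receptor and for TGANTCA of AP-1. Pmaip1 had no promoter among the 16 and was not searched. The FOXO letters were in 1 Bbc3 and 1 Bcl2l11 promoter and in 3.65% of all 32851 promoters of this length. The p53 decamer was in 1 Bmf and 1 Bax promoter and in 8.36% of all, and the GATA letters in 1 Bcl2l1 promoter and 11.2% of all. The letters of STAT, AP-1 and the glucocorticoid receptor had no match in these windows, and were in 8.30%, 7.81% and 19.0% of all promoters. GC boxes, found in 35.7% of all, were in promoters of Bbc3, Bmf, Bcl2l11, Bcl2, Bid, Bax and Mcl1. A match is a run of letters and not a measured binding site.

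Over the 141 tested genes of 9 lists (the wider BCL2 family, the apoptotic machinery and pathways that act on it), 14 passed between hosts under control Ab, or 9.93% against 5.25% of all probes. With the antibody in MCA-OVA-bearing mice 12 passed, or 8.51% against 4.27%. Each list gene is counted by its brightest probe, whereas the shares of all probes include dimmer and repeated probes. The 2 shares are thus not like for like, here and for each list. The lists were also chosen with earlier results of these data known, so a share above that of all probes is no independent support. Among 14 tested further BCL2 relatives, Bad, a BH3-only sensor of growth factor loss, rose by 0.45 between hosts under control Ab (limma adjusted p = 0.046). Bok, a BAX-like effector, rose by 1.32 ± 0.20 (SE) with the antibody in MCA-OVA-bearing mice (limma adjusted p = 0.027). Bad and Bok were the only calls of that list in the 2 comparisons (7.14% in each, against 5.25% and 4.27% of all probes). Of 21 tested genes of the apoptosome and its inhibitors, none passed for the antibody in MCA-OVA-bearing mice by limma, and 7 (33.3%) had an unadjusted p under the threshold, as did 27.0% of all probes.

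Of 14 tested death receptor genes, 2 passed between hosts under control Ab (14.3%, against 5.25% of all probes). For the antibody in MCA-OVA-bearing mice 2 passed as well (14.3%, against 4.27%). Each time 1 was higher and 1 lower. Tnfsf10, which encodes the ligand TRAIL, rose by 0.41 between hosts under control Ab. Fcmr, a receptor for IgM that is abundant on B cells, fell by 1.03 between the hosts and rose by 0.95 with the antibody in MCA-OVA-bearing mice, and the adaptor Fadd fell by 0.48 with the antibody (limma adjusted p = 0.028, 0.043 and 0.039). The summed B cell markers given above were lowest on the same control Ab arrays of MCA-OVA-bearing mice, and their part in the Fcmr values was not tested.

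The p53 and FOXO factors are both known to act on BH3-only genes. Of 19 tested p53 targets, Plk2 alone passed between hosts under control Ab (5.26% of the list, against 5.25% of all probes), where it fell by 1.07 (limma adjusted p = 0.012). None passed by limma for the antibody in MCA-OVA-bearing mice, against 4.27% of all probes. An unadjusted p under the threshold was found for 3 (15.8%), against 27.0% of all probes. Of 14 FOXO genes none passed between hosts by limma, with 3 (21.4%) unadjusted against 23.8% of all probes. With the antibody in MCA-OVA-bearing mice 2 of the 14 rose (14.3%, against 4.27% of all probes passing): Il7r, the interleukin-7 receptor, by 0.69, and Pik3ip1, an inhibitor of PI3-kinase, by 0.55 (limma adjusted p = 0.027 and 0.028).

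Of 14 stress response genes, 4 passed between hosts under control Ab (28.6%, against 5.25% of all probes), 2 higher and 2 lower. For the antibody in MCA-OVA-bearing mice 2 passed (14.3%, against 4.27%), 1 in each direction. Asns, an ATF4 target, rose by 1.50 between hosts under control Ab and fell by 1.25 with the antibody in MCA-OVA-bearing mice (limma adjusted p = 0.0017 and 0.020). Atf3, an immediate stress factor, did the reverse: it fell by 2.43 and then, with the antibody, rose by 2.47 (limma adjusted p = 0.017 and 0.029). Xbp1, a factor of the unfolded protein response that is abundant in plasma cells, rose by 0.51 between hosts (limma adjusted p = 0.019). The summed level of the 7 tested plasma cell markers, Xbp1 among them, was 22.4 to 23.4 in tumor-free and 41.7 to 45.0 in MCA-OVA-bearing mice with control Ab, and the part of these cells in the Xbp1 value was not tested. The regulator list of 19 genes held 1 call in each comparison (5.26%, against 5.25% and 4.27% of all probes). It was E2f1, a cell cycle factor, which rose by 0.63 between hosts and fell by 0.71 with the antibody.

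Of 17 genes of survival cytokine receptors and STAT5, Cish, Socs2 and Il2rb rose by 0.59, 0.65 and 0.44 between hosts under control Ab (3 of 17, against 3.36% of all probes). The first and second are feedback inhibitors induced by STAT5, and the third is a receptor chain shared by interleukin-2 and interleukin-15. With the antibody in MCA-OVA-bearing mice, where 4.27% of all probes passed, Il7r was the 1 call of that list, and it stands in 3 of the 9 lists. Of 12 glucocorticoid response genes, 5 rose with the antibody in MCA-OVA-bearing mice (41.7%, against 1.51% of all probes). Among them were Il7r, Tsc22d3 (0.67), the gene of GILZ, and Per1 (0.47), a clock gene. The median of that list was 0.37 against -0.04 over all probes, and none of its genes passed between hosts by limma, with 7 (58.3%) unadjusted against 23.8% of all probes.

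In tumor-free mice, 0 of the 141 genes of the 9 lists passed for the antibody by limma, with 19 (13.5%) at an unadjusted p under the threshold against 8.00% of all probes. Between hosts under anti-IL-6R Ab it was also 0 of 141, with 9 (6.38%) unadjusted against 7.43%. Bbc3 was thus the call among members and these lists in tumor-free mice, in a comparison with 10 calls over all probes.

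Over both hosts, where antibody and slide column cannot be told apart, Bbc3 rose with anti-IL-6R Ab, as did 4 of the 141 genes (2.84%, against 0.0905% of all probes). These were Bok (2.14-fold), Tsc22d3 (1.59-fold), Pik3ip1 (1.49-fold) and Il7r (1.46-fold), with limma adjusted p of 0.045, 0.020, 0.023 and 0.040. A second probe of Tsc22d3 rose by 0.78 on the log2 scale (limma adjusted p = 0.032). The second Il7r probe gave 0.72 and the other 2 Pik3ip1 probes 0.35 and 0.56, which did not pass (limma adjusted p = 0.136, 0.117 and 0.126).

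Among 14070 genes compared, those whose centred profile over the 8 arrays lay nearest to that of Bbc3 were Clu (mean absolute difference 0.143), Ccm2l (0.151) and Bok (0.153). Clu encodes clusterin, a secreted chaperone. Its log2 signal was 1.21 ± 0.32 (SD, n = 2) and 1.04 ± 0.28 in tumor-free and MCA-OVA-bearing mice with control Ab, and 1.95 ± 0.21 and 2.15 ± 0.20 with anti-IL-6R Ab. Bok, in the same order, was -2.85 ± 0.08 and -3.06 ± 0.12, then -1.97 ± 0.35 and -1.74 ± 0.03, and was well above background on all 8 arrays. Ccm2l was dim, at -3.43 ± 0.12 and -3.33 ± 0.38, then -2.43 ± 0.17 and -2.43 ± 0.02. The lowest level called well above background was -4.43 to -3.83, depending on the array. The group means of Pmaip1 and Bmf spanned 0.92 and 0.84, below the span of 1 set for naming nearest genes.

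**Figure D5:**
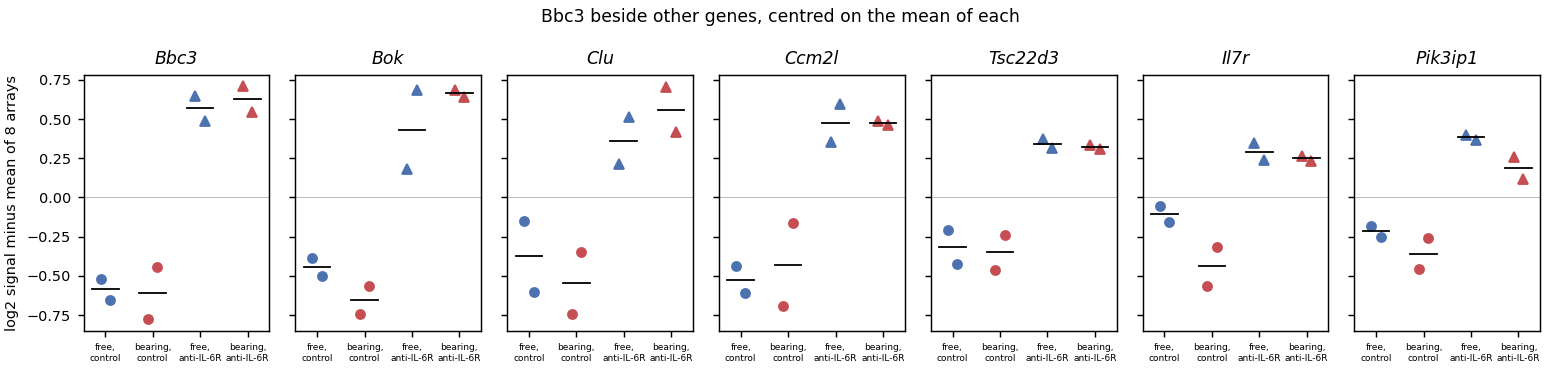
Log2 signal minus the mean of the same probe over 8 arrays (vertical axis) for Bbc3, its 3 nearest genes Clu, Ccm2l and Bok, and Tsc22d3, Il7r and Pik3ip1, by group; circles are control Ab, triangles anti-IL-6R Ab, blue tumor-free, red MCA-OVA-bearing, and bars are means of 2 arrays. In each panel all 4 anti-IL-6R Ab arrays lie above all 4 control Ab arrays. Clu, Ccm2l and Bok were chosen by their likeness to Bbc3 on these arrays. Tsc22d3, Il7r and Pik3ip1 were chosen because they passed for the average antibody effect on the same arrays. The separation is thus no further support for Bbc3, and its share over all probes was not counted.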

How the data were processed

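Each of the 8 samples was hybridized to a 1-color Agilent array. The submitters' processing notes name Agilent Feature Extraction 10.10.1.1 as the authors' scanner software, and the deposited scanner files hold its intensity values. Background had been subtracted from the processed signal, per the file headers. In the deposited value table every column of log2 values equalled log2 of the processed signal minus the 75th percentile of its array (SD of the offset at most 0.00134).

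Control spots (3671 of 62976 per array) and 60 to 95 outlier spots per array were dropped, and spots of a probe were averaged. 18 probes lost all their spots on an array and were removed, leaving 56587. Log2 processed signals minus the array's 75th percentile (500.3 to 526.6) were used. Probes were tested if the software called them well above background on each array of 1 group or more. The lowest such signal was 24.2 to 36.3, and the number of arrays limits the precision. Where neither array of a group was above background for a probe, its difference is not an exact size.

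limma 3.58.1 (R 4.3.3) was fitted to all 8 arrays as 4 group means with an intensity trend (4 residual degrees of freedom, prior 4.29), two-sided, with Benjamini-Hochberg adjustment over 32039 probes. The fit was tested on simulated data. Python 3.11.15, pandas 2.3.3 and numpy 2.4.6 read the files, and matplotlib 3.10.9 drew the plots.

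The members and gene lists were chosen with earlier results of these data known. All member probes are accounted for. From each pathway list, at most 3 genes per comparison are named, those past the threshold with the smallest unadjusted p, and each gene is represented by its brightest probe. For Bbc3, Pmaip1 and Bmf, the 3 genes with the nearest centered profile are named where the group means span at least 1 on the log2 scale. Egfl7, Plvap, Rhd and Slc4a1 were named as markers after their values were seen. Alternatives were normexp background correction (offset 50), quantile normalization, no filter, 1 probe per gene, no variance trend, array weights, the deposited value table, and each array left out in turn. Some results of the apoptosome list are not reported here.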

Additional observations from a re-analysis of the deposited data

How the results depend on the processing

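No called difference of a member probe changed sign under the 15 alternatives. Of the 2128 values recomputed for 147 differences (21 probes, 7 comparisons), 39 lost a call and 10 gained one. Between hosts under control Ab, 3 member probes passed, against 4 with 1 probe per gene, 2 with normexp or quantile normalization, 1 with no filter, no variance trend or array weights, and 1 to 3 with 1 array left out. For the antibody in MCA-OVA-bearing mice 3 passed, against 1 with no filter, 0 with no variance trend, and 0 to 3 with 1 array left out, where 0 was without array 8. For the antibody in tumor-free mice 1 passed, against 0 with no filter, 1 probe per gene, no variance trend or array weights, and 0 to 1 with 1 array left out. For the interaction 0 passed, against 1 with normexp or 1 probe per gene, and 0 to 1 with 1 array left out. For the average antibody effect 1 passed, and 0 to 1 with 1 array left out.

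Over all probes, limma calls between hosts under control Ab numbered 1681, but 674 with no filter, 722 with no variance trend and 901 with array weights. For the antibody in MCA-OVA-bearing mice they numbered 1369, but 15 with no filter and 56 with no variance trend. For the antibody in tumor-free mice they were 10, but 21 with normexp and 4 with 1 probe per gene or array weights. Between hosts under anti-IL-6R Ab they were 67, but 23 with no filter and 21 with no variance trend. The interaction had 8 calls, 2 of them higher, but 13 with normexp, 5 with quantile normalization (0 higher), 20 with no variance trend and 0 with no filter (8579 unadjusted). The average host effect had 526, but 326 with no filter and 342 with no variance trend, and the average antibody effect had 29, but 84 with normexp and 7 with no filter. With 1 array left out these counts ran, in the same order, over 427 to 1787, 24 to 1766, 8 to 52, 13 to 223, 4 to 364, 288 to 536 and 0 to 229, the last 0 being without array 2 (4543 unadjusted).

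No paired analysis was possible because the replicate numbers 1 to 8 never recur between groups. With 1 array left out, the lone array of its group is assumed to vary like the other groups. 2 arrays per group limit every call, and dim probes (under 24.2 to 36.3 in signal) have no exact size.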
